A study of Mus musculus with 2197 samples.

Results

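The endothelial cells described here are barcodes of the 2 droplet libraries of whole mouse pancreas at E14.5, an embryonic stage. They were selected on 2 endothelial membrane genes, Pecam1 and Cdh5, each at 1 or more UMI (a unique molecular identifier, which marks 1 captured RNA molecule). Epcam, an epithelial gene, and Ptprc, a leukocyte gene, had to be at 0 UMIs. Barcodes also had to hold at least 1000 genes and under 10% of counts from mitochondrial (mt-) genes. By this choice 70 of 3406 passing barcodes of library 1 were endothelial (2.06%, 95% exact binomial interval 1.61 to 2.59) and 229 of 6764 of library 2 (3.39%, 2.97 to 3.84), or 299 of 10170 in all. Intervals in the text cover counting error only.

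The series profiles single cells of the developing mouse pancreas. Besides these 2 droplet libraries it holds 2195 sorted cells, which were not analysed here. Both droplet libraries came from digested E14.5 pancreas, passed through a filter and captured with no sort. The labels name no strain, genotype, treatment or number of embryos for them, and do not say whether they came from separate litters. They form 1 group of 2 samples with no second condition, so no test was made: each value is given for both libraries, and differences are descriptions.

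Endothelial cells line blood and lymphatic vessels. They read vascular endothelial growth factors (VEGF) through the receptors Kdr and Flt1, and angiopoietins through Tek. Notch signalling between neighbouring endothelial cells separates sprouting tip cells from the cells behind them and takes part in artery formation, whereas Nr2f2 and the apelin receptor Aplnr are known from veins and capillaries. In the embryonic pancreas, endothelium signals to the epithelium that gives rise to endocrine and acinar cells. Pancreatic capillaries are fenestrated, with Plvap in the diaphragms of their pores.

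The endothelial barcodes were deep. Median UMIs per barcode were 15623 in library 1 and 8002 in library 2, against 9201 and 4908 in the other passing barcodes, and their medians of 3270 and 2701 genes stood above 2496.5 and 1956. The mt- share was 3.43% and 4.86%, against 2.96% and 4.93%. Summed over barcodes, levels rest on 1454254 and 2129259 UMIs in the endothelial barcodes and on 44437794 and 46590772 in the others. No endothelial barcode sequence occurred in both libraries, and 32 of all passing ones did. Scrublet called 4 of 3406 barcodes of library 1 doublets (0.117%), none of them endothelial, and 161 of library 2 (2.38%), 14 of them endothelial. Called doublets were kept.

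The label was checked with a list of 24 core endothelial genes that holds neither of the selecting genes. Their summed count had a median of 105.5 UMIs in the endothelial barcodes of library 1 and 67 in those of library 2, and of 1 in the other barcodes of both. At least 10 core UMIs were found in 66 of 70 and 228 of 229 endothelial barcodes, and in 9 of 3336 and 39 of 6535 others. The exceptions were 4 barcodes of library 1 and 1 of library 2 with under 5 core UMIs. The label therefore held for all but 5 of the 299 by that count. The cut of 5 core UMIs was also met by 72 and 148 other barcodes, of which 55 and 103 held neither Pecam1 nor Cdh5.

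Just outside the rule, Pecam1 without Cdh5 marked different things in the libraries. In library 1, 367 barcodes without Epcam and Ptprc held Pecam1 alone, at a mean of 1.16 UMIs, and 9 of them reached 5 core UMIs. In library 2 there were 60 such barcodes, of which 12 reached it. Pecam1 was found in 27.9% of barcodes with Epcam in library 1 and in 2.42% in library 2, whereas Cdh5 was found in 1.26% and 2.03%. Kdr, which the rule did not use, was found in 1.88% and 2.14%. Thus the wide low signal in library 1 was seen for Pecam1 and not for the other endothelial genes compared. Cdh5 alone marked 8 and 44 barcodes, with 0 and 17 at 5 core UMIs. Both genes together with Epcam or Ptprc marked 7 and 12, which the rule leaves out although 5 and 12 of them reached 5 core UMIs. Just inside the rule, 3 and 4 endothelial barcodes held exactly 1 UMI of both genes.

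**Figure D1:**
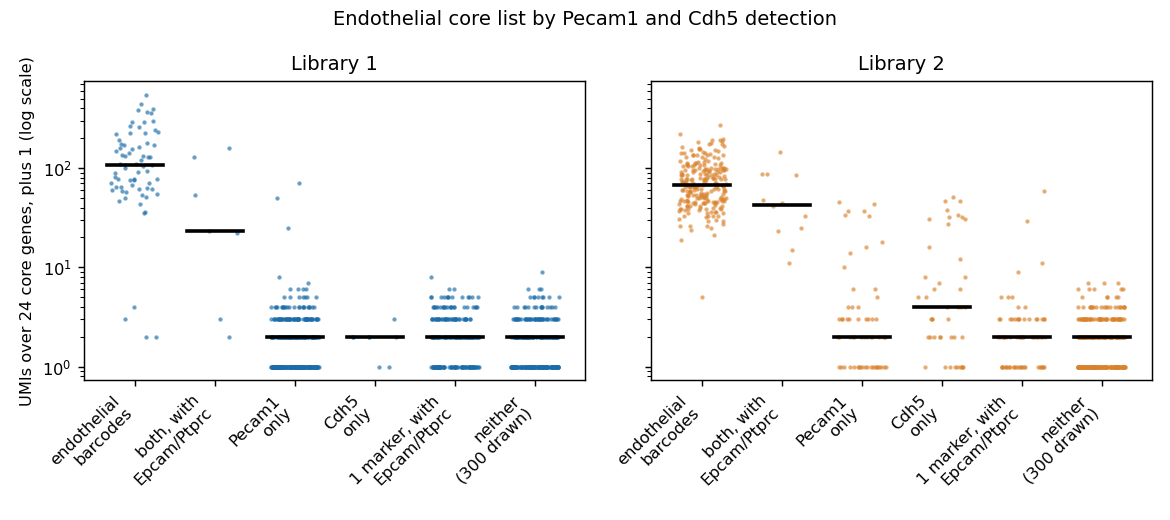
UMIs summed over the 24 core endothelial genes, plus 1, on a log axis, for the barcodes of each library grouped by detection of Pecam1 and Cdh5; each point is a barcode and black lines are medians, with 300 barcodes drawn at random per library for the class with neither gene. The endothelial barcodes sit at medians of 105.5 and 67 UMIs, above nearly all barcodes with Pecam1 alone.

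Summed counts were compared between endothelial and other barcodes as counts per 1000000 (CPM). Each UMI marks the 3' end of a molecule, so no length scaling enters. The cells were chosen on genes of this same contrast, so the values below describe them and test nothing. A gene is called higher here when it was at least 4-fold higher in both libraries and held at least 20 UMIs in the endothelial barcodes of both together. Of 9286 genes with that many UMIs, 474 were called higher (5.1%), and the median log2 fold over all 9286 was -0.05 in library 1 and 0.0021 in library 2. In the other direction 676 of 14203 genes were at least 4-fold lower in both libraries (4.76%), or 8.08% of the 8366 whose level in the other barcodes would have let such a fold show.

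All 24 core genes were called higher, with median log2 folds of 7.25 and 6.46. Kdr, the main VEGF receptor of endothelium (chromosome 5, 75932827 to 75978458, minus strand, GRCm38), stood at 602 CPM in the endothelial barcodes of library 1 and 570 CPM in those of library 2, against 4.55 and 5.34 CPM in the others. It was 132-fold higher in library 1 (95% interval 113 to 155) and 107-fold in library 2 (93.0 to 123). At least 1 Kdr UMI was found in 92.9% of endothelial barcodes of library 1 (84.1 to 97.6) and 96.9% of those of library 2 (93.8 to 98.8), against 1.4% and 1.37% of epithelial barcodes, whose median depth of 17487 and 11093 UMIs was greater. Epithelial barcodes here hold Epcam and neither Ptprc, Pecam1 nor Cdh5. With every barcode thinned to 2000 UMIs the shares were 55.7% and 68.1%.

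Gpihbp1 led the genes ranked by the smaller of the libraries' folds. It encodes the protein that carries lipoprotein lipase to the capillary lumen (chromosome 15, 75596628 to 75599481, plus strand). It stood at 223 and 342 CPM, against 0.788 and 1.4 CPM, a fold of 283 (199 to 413) and 245 (190 to 321). Lpl, the lipase itself, was low in the endothelial barcodes, at 14.4 and 7.51 CPM, and higher in mural barcodes, at 53.9 and 135 CPM. Fabp4, a fatty acid carrier, stood at 946 and 635 CPM and Cd36, a fatty acid transporter, at 138 and 155 CPM. In the other barcodes Fabp4 stood at 6.17 and 5.56 CPM and Cd36 at 3.29 and 4.51 CPM.

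The next ranks held Flt1, Tie1, Aplnr, Emcn, Ptprb, Cd93, Myct1, Cldn5 and Robo4. Flt1, a VEGF receptor that can act as a decoy, was 443-fold higher in library 1 (328 to 611) and 195-fold in library 2 (156 to 245). Cldn5, the endothelial tight junction claudin, was 344-fold (206 to 614) and 155-fold (118 to 207) higher. Robo4, an endothelial guidance receptor, had 173 and 310 UMIs in the endothelial barcodes, at 119 and 146 CPM, against 0.248 and 0.944 CPM. The rest of the 25 leading genes were Icam2, Gimap4, Fabp4, Kdr, Adgrf5, Esam, Col15a1, Ccl21a, Clec14a, Pde2a, Ctla2a, Gimap6, Tmem255a, Epas1 and Vamp5. Their smaller fold ran from 140 for Icam2 to 44.1 for Vamp5. Ccl21a differed from the other 24 in where it came from: it was found in 5.71% and 6.55% of endothelial barcodes, and each of the others in at least 47.2% of them in each library.

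**Figure D2:**
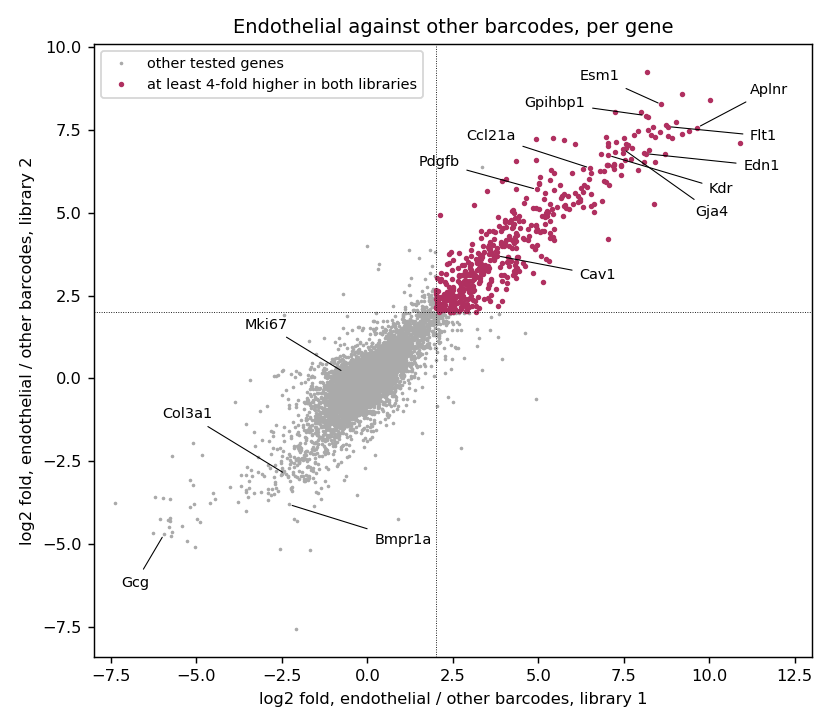
Log2 fold of summed CPM in endothelial against other barcodes for each of 9286 genes, library 1 on the horizontal axis and library 2 on the vertical axis, with dotted lines at 4-fold. The 474 red genes are at least 4-fold higher in both libraries, and Mki67, a proliferation gene, lies near 0.

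The 10 genes with the smallest fold, among those at 100 CPM or more in the other barcodes, were Slc38a5, Chgb, Krt18, Mt1, Gcg, Ttr, Krt8, Nupr1, Cystm1 and Spp1. Krt8 and Krt18 are epithelial keratins, Gcg is glucagon and Chgb a granule protein of endocrine cells. Gcg stood at 10.3 and 36.6 CPM in the endothelial barcodes, against 637 and 957 CPM in the others. All 9 epithelial and 9 endocrine list genes were called lower, as were 8 of 9 acinar, 5 of 7 mesenchymal and 5 of 8 leukocyte genes with enough counts in the others. Epcam is on the epithelial list and Ptprc on the leukocyte list, and the rule set both to 0 UMIs in the endothelial barcodes. For them a lower level was fixed in advance. Fewer were called lower of the mural list (1 of 9), the mesothelial list (1 of 4), the neural and glial list (2 of 7) and the liver list (2 of 6).

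RNA of other cells was nonetheless present. At least 2 acinar list UMIs were found in 21.4% and 41% of endothelial barcodes, against 25.9% and 20.5% of leukocyte barcodes, whose median depth was 10431 and 5373 UMIs. For the endocrine list the shares were 14.3% and 25.8%, against 1.85% and 9.09%. One endothelial barcode of library 2 held 295 endocrine UMIs, and 1 of library 1 held 129 mesenchymal UMIs. Leukocyte list genes summed to 81.1 and 17.4 CPM in endothelial barcodes, against 15540 and 15417 CPM in leukocyte barcodes. The part of free RNA or of joined cells in these values was not tested.

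The start regions of leading genes are shown because ETS factors, of which Erg and Fli1 are endothelial members, bind sites with a GGAA core. RefSeq start sites (GRCm38.p6) were found for 17 of the 25 leading genes. The letters GGAA on either strand were present in the 250 bases before the start in 16 of these 17 (94.1%) and in 93.1% of 17999 genes of the files, so presence did not set them apart. The mean count was 4.12 per window in the 17 and 2.91 in all. Capitals mark GGAA or, for the other strand, TTCC, in 3 windows that hold 4, 7 and 0 matches and no annotated exon: Flt1 (chr5:147726012-147726261, minus strand), Adgrf5 (chr17:43360181-43360430, plus strand) and Cldn5 (chr16:18776597-18776846, plus strand), each written 5′ to 3′ on its gene's strand. The absence of the letters from the Cldn5 window says nothing of any factor.
Flt1: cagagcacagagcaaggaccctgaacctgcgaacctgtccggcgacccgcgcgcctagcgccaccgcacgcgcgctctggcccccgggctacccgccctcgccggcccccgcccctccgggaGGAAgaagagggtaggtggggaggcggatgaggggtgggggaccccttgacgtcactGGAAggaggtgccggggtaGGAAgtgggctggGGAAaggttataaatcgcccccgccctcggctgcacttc
Adgrf5: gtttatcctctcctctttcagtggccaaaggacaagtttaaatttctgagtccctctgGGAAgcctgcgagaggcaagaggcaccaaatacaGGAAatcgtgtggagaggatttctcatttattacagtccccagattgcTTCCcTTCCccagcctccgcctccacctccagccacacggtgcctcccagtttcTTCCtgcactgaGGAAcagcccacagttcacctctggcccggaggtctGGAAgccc
Cldn5: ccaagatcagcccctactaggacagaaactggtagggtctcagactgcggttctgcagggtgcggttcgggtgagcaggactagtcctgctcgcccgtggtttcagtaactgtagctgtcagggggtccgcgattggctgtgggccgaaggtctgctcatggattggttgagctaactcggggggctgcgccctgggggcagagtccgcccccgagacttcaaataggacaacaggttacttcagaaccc

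Of 23 endothelial transcription factors with enough UMIs, 19 were called higher, with median log2 folds of 4.38 and 4.67. Erg stood at 59.8 and 81.7 CPM, against 0.135 and 0.515 CPM. Fli1, which blood cells also use, stood at 118 and 189 CPM, against 5.99 and 5.95 CPM, and leukocyte barcodes held 73.8 and 78.3 CPM. Sox7 and Sox18, of the SOXF family, were found in 61.4% and 52.8% and in 50% and 27.1% of endothelial barcodes. The 4 factors tested and not called were Klf4, Hhex, Nr2f2 and Nkx2-3. Nr2f2 was as high outside the endothelium, at 221 and 122 CPM against 177 and 125 CPM. Etv2, the factor of the earliest endothelial progenitors, had 0 UMIs in the endothelial barcodes of both libraries, where 3 counts amount to 2.06 and 1.41 CPM.

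Of 5 VEGF receptors 4 were called higher, whereas the 5 VEGF ligands were mixed. Median log2 folds of the ligands were 1.57 and 0.84, with 1 called higher and 1 called lower. Kdr, Flt1, Flt4 and Nrp2 were called higher, and Nrp1 was 2.70-fold and 1.87-fold higher, with 144 to 380 CPM in mural and mesenchymal barcodes. Among the ligands, Vegfa stood at 6.88 and 2.35 CPM in the endothelial barcodes and at 21.8 and 12.6 CPM in epithelial ones. Pgf, a ligand of Flt1, was called lower, with 2.75 and 7.04 CPM against 24.8 and 59.4 CPM in mural barcodes. Vegfc, the ligand of Flt4, was the one VEGF ligand called higher, 10.6-fold (6.39 to 17.1) and 5.24-fold (3.34 to 7.96).

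Of the angiopoietin and Tie list, 3 of 4 tested genes were called higher, the receptors Tek and Tie1 among them, and 0 of 6 were called lower. Tek stood at 99.7 and 107 CPM in the endothelial barcodes, and its partner Tie1 at 199 and 163 CPM. Angpt1, the Tek ligand that mural cells make, had 4 and 0 UMIs in the endothelial barcodes, where 3 counts amount to 2.06 and 1.41 CPM. It stood at 5.44 and 11.4 CPM in mural barcodes and was not called lower. Angpt2, the ligand that endothelium itself can make, was found in 10% and 3.49% of endothelial barcodes.

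Endothelial cells recruit mural cells through Pdgfb, whose receptor is Pdgfrb. Pdgfb stood at 33 and 125 CPM in the endothelial barcodes and at 0 and 0.656 CPM in mural ones. Pdgfrb, which was used to choose the mural barcodes, stood at 7.56 and 2.82 CPM in the endothelial ones. Kitl, the ligand of Kit, was 13.1-fold and 12.3-fold higher in endothelial barcodes, at 64.6 and 119 CPM. Cxcl12, a chemokine, was called lower, at 26.1 and 24 CPM against 416 and 626 CPM in mesenchymal barcodes, while its receptor Cxcr4 was called higher, at 13.1 and 14.1 CPM. Slit2 stood at 165 and 295 CPM in mesenchymal barcodes and at 18.6 and 14.1 CPM in endothelial ones. Sema3c, which was called lower and is a ligand that Plxnd1 and neuropilins can read, stood at 2.06 and 0.939 CPM in the endothelial barcodes and was found in 27.7% and 25.4% of epithelial ones. Plxnd1 stood at 404 and 417 CPM in the endothelial barcodes.

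**Figure D3:**
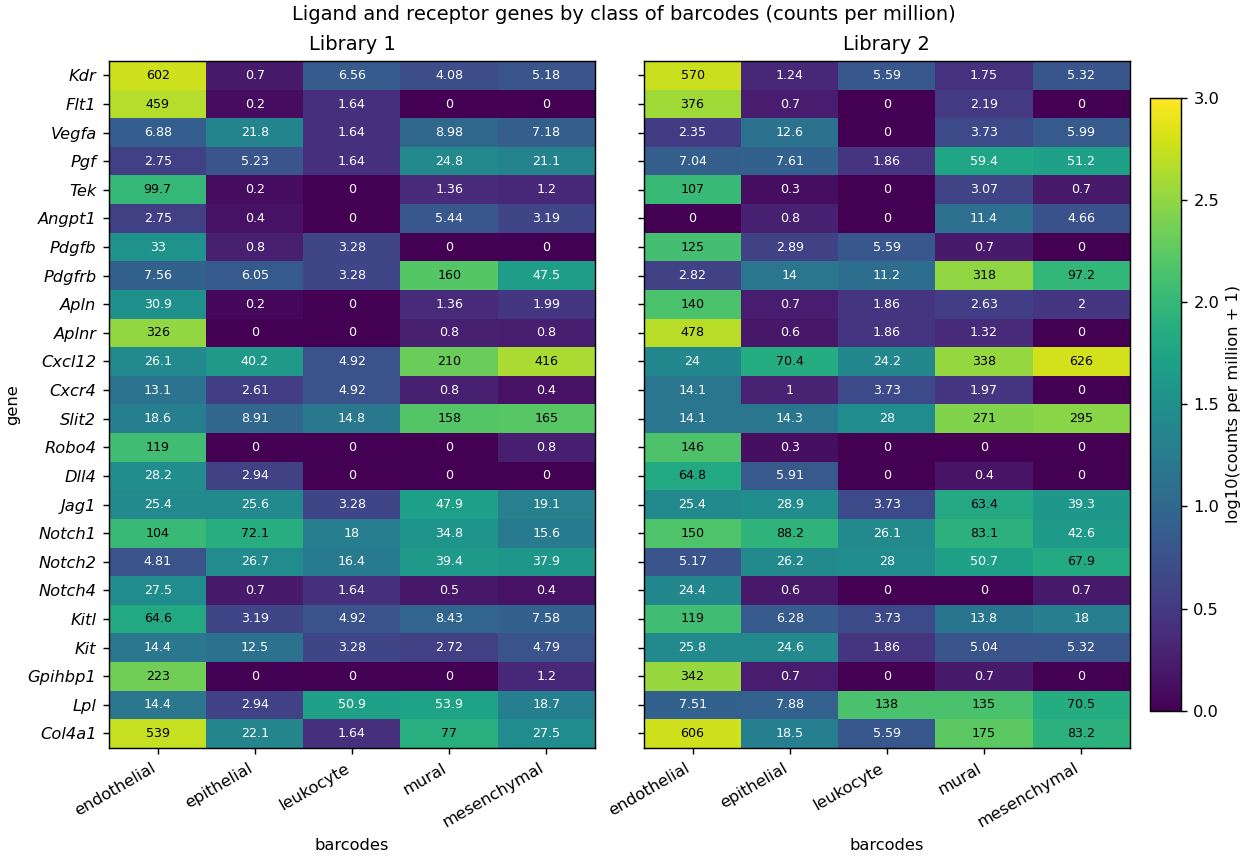
Counts per 1000000 (CPM) of 24 ligand, receptor and vessel genes in endothelial, epithelial, leukocyte, mural and mesenchymal barcodes of each library, coloured by log10(CPM + 1). Kdr, Tek, Aplnr and Robo4 fill the endothelial column, whereas Cxcl12 and Slit2 are highest in the mesenchymal one; Pdgfrb was used to choose the mural barcodes.

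In the Notch pathway 5 of 9 tested genes were called higher. Notch4 stood at 27.5 and 24.4 CPM against 0.720 and 0.730 CPM, and its ligand Dll4 at 28.2 and 64.8 CPM against 2.05 and 4.61 CPM. Jag2, Hey1 and Nrarp, a Notch target and feedback inhibitor, were the other 3. Notch2 was called lower, at 4.81 and 5.17 CPM against 29.9 and 36.2 CPM, and Notch1 was 2.30-fold and 2.21-fold higher. The target Hes1 stood at 144 CPM in library 1 and 14.6 CPM in library 2. The other barcodes differed between the libraries likewise, at 310 and 31.3 CPM.

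Of 15 tested genes of the BMP and TGF-beta list, 4 were called higher: the co-receptor Eng, the endothelial type I receptor Acvrl1, Tgfbr2 and the target Id1. Acvrl1 stood at 86.0 and 77.0 CPM against 1.96 and 3.37 CPM. Bmpr1a, the type I receptor of most other cells, was called lower, at 10.3 and 4.23 CPM against 50.8 and 59.2 CPM. Bmp6 had 0 UMIs in the endothelial barcodes of both libraries.

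The basement membrane list had 6 of 14: Col4a1, Col4a2, Lama4, Hspg2, Col15a1 and Col18a1. Col4a1 stood at 539 and 606 CPM against 31.7 and 53 CPM. The list of caveolae, fenestrae and lipid uptake had 9 of 11, with Cav1 at 646 and 758 CPM and Plvap at 296 and 242 CPM. Plvap was found in 87.1% and 71.6% of endothelial barcodes. Mfsd2a and Apcdd1, known from blood-brain barrier endothelium, had 0 UMIs in both libraries. Fzd4, the receptor of that pathway, was the 1 of 6 tested genes of the barrier list called higher, at 67.4 and 77.0 CPM.

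The arterial, venous, tip cell and lymphatic lists were read per barcode, as counts over a list and not as cell types. At least 2 arterial UMIs were found in 49 of 70 endothelial barcodes of library 1 (interval 57.9% to 80.4%) and 113 of 229 of library 2 (49.3%), against 23.3% and 13.6% of epithelial ones. Thinned to 2000 UMIs the endothelial shares were 18.6% and 21%, and the epithelial ones 0.175% and 0.343%. At least 2 venous UMIs were found in 98.6% and 98.3%, against 137 of 571 and 307 of 1751 epithelial barcodes and 59.6% and 31.5% of all others. The venous list holds Emcn, which is also a core endothelial gene, and Nr2f2, which was as high outside the endothelium. A high venous share therefore does not set venous barcodes apart from other endothelial ones. Thinned, the venous shares were 65.7% and 72.1%, against 13.1% and 10.1% of the others. At least 2 tip cell UMIs were found in 88.6% of both libraries, against 34.6% and 30.1% of the others, and thinned in 30% and 52%, against 3.60% and 10.1%. For the lymphatic list the shares were 57.1% and 35.4%, against 51.8% and 29.1% of epithelial barcodes, and thinned to 2000 UMIs they were 8.57% and 7.86%, against 2.45% and 2.06%. Prox1, a lymphatic factor that pancreatic epithelium also uses, was found in 14 and 18 endothelial barcodes and stood at 106 and 76.3 CPM in epithelial ones.

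**Figure D4:**
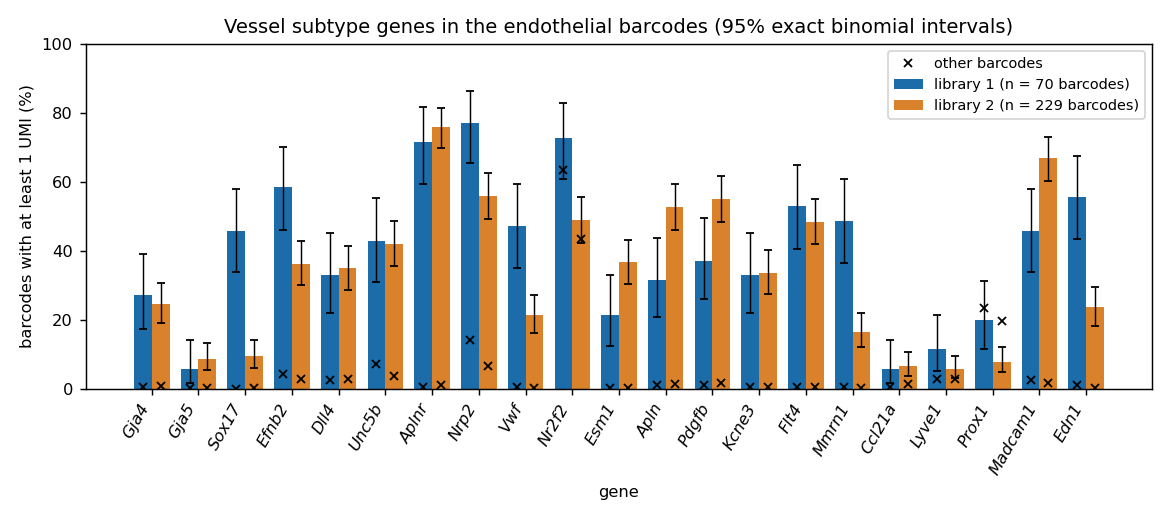
Share of endothelial barcodes with at least 1 UMI of each of 21 vessel subtype genes in library 1 (70 barcodes) and library 2 (229 barcodes), with 95% exact binomial intervals; crosses mark the share of other barcodes. Gja4 sits at 27.1% and 24.5%, Aplnr at 71.4% and 76.0%, and Ccl21a at 5.71% and 6.55%; Nr2f2 and Prox1 are also found in the other barcodes.

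To see how the endothelial barcodes differ among themselves, they were divided by detection of 1 gene at a time. The 5 genes (Gja4, Aplnr, Vwf, Esm1 and Ccl21a) and the 4-fold rule within the endothelial barcodes were chosen after the values were seen, so the divisions are descriptions. A gene is counted when it was at least 4-fold higher in both libraries and held at least 20 UMIs over both in the barcodes with the dividing gene. Epithelial, mural, mesenchymal and leukocyte values are given where another cell type also held the gene.

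Gja4 encodes an arterial connexin (chromosome 4, 127311421 to 127314039, minus strand). It was found in 19 of 70 and 56 of 229 endothelial barcodes, or 27.1% (17.2 to 39.1) and 24.5% (19 to 30.6). Barcodes with and without it had median depths of 14387 and 15759 UMIs in library 1 and of 7806.5 and 8002 UMIs in library 2. At least 4-fold higher with Gja4 were 30 of 5052 genes (0.594%). They included Gja5, a second arterial connexin, which had 38 and 78 UMIs in 4 and 20 barcodes with Gja4 and 0 UMIs without it, so that it was at least 36.8-fold and 86.2-fold higher.

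The Notch target Hey1 stood at 132 and 160 CPM with Gja4 and at 7.40 and 6.11 CPM without. The ligand Dll4 stood at 69.8 and 164 CPM with Gja4 and at 13.9 and 34.8 CPM without. Other genes of the 30 were Dkk2, Tmem100, Serpinf1, Stmn2, Vegfc, Fbln5, Sat1, Unc5b, Cxcr4, Sema3g, Bmx and Jag2. Of the arterial list, Efnb2 was 3.95-fold and 4.13-fold higher and Jag1 7.84-fold and 3.57-fold, so both were under 4-fold in 1 library. Hbb-y, an embryonic globin, was among the 30, at 34.5-fold and 5.47-fold. Without the 1 and 7 endothelial barcodes that held over 100 erythroid UMIs it was 1.21-fold and 1.49-fold higher, and the count of genes was again 30, and without called doublets it was 29.

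Several of the 30 were also made by other cells. Dkk2 stood at 92.8 and 42.8 CPM in mural barcodes, Tmem100 at 71.5 and 68.2 CPM there, Stmn2 at 132 and 125 CPM in mesenchymal barcodes and Sat1 at 714 and 814 CPM in leukocyte ones. The mesenchyme list summed to 274 and 381 CPM in endothelial barcodes with Gja4 and to 318 and 346 CPM in those without. The mural list summed to 156 and 64.9 CPM with Gja4 and to 66.6 and 58.1 CPM without. The neural and glial list moved most, at 507 and 470 CPM with Gja4 and 36.1 and 39.1 CPM without. Stmn2, which is on that list, made up 432 and 438 CPM of it with Gja4 and 28.7 and 18.3 CPM without. At least 2 UMIs of the list were found in 47.4% and 32.1% of barcodes with Gja4 and in 21.6% and 4.05% of those without. The part of other cells' RNA in this division was not tested. Barcodes counted as holding mesenchymal, acinar or endocrine RNA had at least 3 mesenchyme list UMIs, or at least 2 over the acinar and endocrine lists. Barcodes with fewer such UMIs were kept. Without the 31 and 149 barcodes that met this, 12 of 1749 genes were at least 4-fold higher with Gja4. Gja5, Hey1, Dll4, Unc5b, Dkk2, Tmem100, Stmn2, Sat1, Fbln5, Ltbp4 and Slc45a4 were among both the 30 and the 12.

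Odc1 and Ccnd1, chosen after their values were seen, were lower with Gja4. Odc1, which encodes the first enzyme of polyamine synthesis, stood at 37.6 and 50.7 CPM with Gja4 and at 382 and 387 CPM without. Cyclin D1 (Ccnd1) stood at 164 and 268 CPM against 380 and 551 CPM. The 18 G2/M genes summed to 1012 and 1472 CPM with Gja4 and to 1582 and 2385 CPM without. At least 2 G2/M UMIs were found in 12 of 19 barcodes with Gja4 in library 1 (63.2%, 38.4 to 83.7) and in 25 of 56 in library 2 (44.6%, 31.3 to 58.5). Without Gja4 the shares were 76.5% (62.5 to 87.2) and 88.4% (82.7 to 92.8). Thinned to 2000 UMIs they were 31.6% and 33.9% with Gja4 and 51% and 68.2% without.

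Aplnr, the apelin receptor (chromosome 2, 85136225 to 85139923, plus strand), was found in 50 of 70 and 174 of 229 endothelial barcodes. Of barcodes with Gja4, 42.1% (20.3 to 66.5) and 30.4% (18.8 to 44.1) held Aplnr, against 71.4% and 76% of all endothelial barcodes. Against barcodes without Aplnr, 9 of 8530 genes were at least 4-fold higher (0.106%): Odc1, Cd36, Lhx6, Ptgs1, Apln, Car8, Lmbr1, A230050P20Rik and Ly6a. Cd36 stood at 185 and 186 CPM with Aplnr and at 17.2 and 38.4 CPM without. Apln, which encodes the ligand of Aplnr, stood at 40.2 and 167 CPM with Aplnr and at 7.35 and 38.4 CPM without, where the library 1 value rests on 3 UMIs (5.46-fold, 1.75 to 27.6). Plvap was 3.91-fold and 2.96-fold higher with Aplnr. Gja5 had 0 UMIs with Aplnr in both libraries. At least 2 G2/M UMIs were found in 78.0% and 86.2% of barcodes with Aplnr and in 12 of 20 and 28 of 55 of those without. The barcodes without Aplnr include the 4 and 1 that held under 5 core UMIs. They also include the 4 and 12 with at least 3 Ccl21a UMIs, described below. With those under 5 core UMIs left out, 8 of 8530 genes were at least 4-fold higher with Aplnr. The G2/M shares without Aplnr were then 62.5% and 50%.

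Other cells' lists moved with this division as well. The neural and glial list stood at 34.4 and 42.1 CPM with Aplnr and at 470 and 508 CPM without, of which Stmn2 was 404 and 470 CPM. The mesenchyme list stood at 158 and 362 CPM with Aplnr and at 688 and 325 CPM without, and the mural list at 59.3 and 56.3 CPM against 167 and 72.3 CPM. The leukocyte list stood at 18.2 and 19 CPM against 243 and 11.3 CPM. The part of other cells' RNA here was not tested. Without the barcodes that held mesenchymal, acinar or endocrine RNA, 6 and 23 barcodes without Aplnr remained and 4 of 4855 genes were at least 4-fold higher. Of the 9 genes above, only Odc1 was among these 4. Cd36 was then 9.32-fold and 3.23-fold higher with Aplnr, and Apln 2.66-fold and 3.57-fold.

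Vwf encodes von Willebrand factor, which is known from larger vessels. It was found in 47.1% (35.1 to 59.5) of endothelial barcodes in library 1 and 21.4% (16.3 to 27.3) in library 2, and thinned to 2000 UMIs in 25.7% and 10.9%. At least 4-fold higher with Vwf were 26 of 6199 genes (0.419%). Matrix genes were among them: the fibulins Fbln2 (151 and 130 CPM in 19 and 15 barcodes, 11.6-fold and 9.02-fold) and Fbln5 (8.08-fold and 13.8-fold), and Ltbp1. Tmem100, a BMP-responsive endothelial gene, stood at 136 and 91.8 CPM with Vwf and at 5.82 and 7.22 CPM without. Tmem100, Fbln2, Fbln5, Dkk2, Gja5, Vegfc, Bmx, Msx1 and Egfl8 were also among the 30 genes higher with Gja4, and Vwf and Gja4 met in 10 and 18 barcodes. Gpihbp1 was lower with Vwf, at 128 and 177 CPM against 329 and 389 CPM. Mesenchymal and mural barcodes held Fbln2 and Ltbp1 as well. The mesenchyme list stood at 128 and 299 CPM with Vwf and at 506 and 370 CPM without. The neural and glial list was higher with Vwf, at 243 and 301 CPM against 61.1 and 93.3 CPM, of which Stmn2 was 231 and 258 CPM against 21.8 and 75.3 CPM. The part of other cells' RNA was not tested. Without the barcodes that held mesenchymal, acinar or endocrine RNA, 7 of 2619 genes were at least 4-fold higher. Only Fbln2, Fbln5 and Ctsh were among both the 26 and these 7.

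Esm1, a tip cell gene (chromosome 13, 113209659 to 113218098, plus strand), was found in 15 of 70 and 84 of 229 endothelial barcodes, and thinned in 8.57% and 16.2%. With Esm1, 2 of 6025 genes were at least 4-fold higher (0.0332%), Prdm1 and Btnl9. Without the barcodes that held mesenchymal, acinar or endocrine RNA, 0 of 2030 genes were, and Prdm1 and Btnl9 stood at 2.74-fold and 3.14-fold in library 2. Smaller differences lay on the same side in both libraries. Kcne3, another tip cell gene, was 4.12-fold (2.82 to 6.05) and 3.73-fold (2.72 to 5.16) higher, and Igfbp3 3.03-fold and 3.56-fold. Gpihbp1 was 2.41-fold and 2.69-fold higher, at 401 and 560 CPM, while Vwf was lower, at 11.4 and 22.1 CPM against 239 and 71.5 CPM. Apln, also on the tip cell list, was not higher with Esm1, at 0.677-fold (0.272 to 1.48) and 0.717-fold (0.555 to 0.921). It was found in 5 of 15 and 41 of 84 barcodes with Esm1 and in 17 of 55 and 80 of 145 without.

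Ccl21a encodes a chemokine of lymphatic endothelium (chromosome 4, 42772860 to 42773993, minus strand). Near-identical Ccl21 genes exist in mouse, so reads may be shared among them. At least 3 UMIs were found in 4 of 70 and 12 of 229 endothelial barcodes, with 43 to 222 and 71 to 394 UMIs in each. Of 1418 genes, 19 were at least 4-fold higher in these barcodes (1.34%), among them Thy1, Reln, Nts, Lyve1, Prox1, Flt4, Mmrn1 and Maf. Prox1 was found in 4 of 4 and 10 of 12, against 15.2% and 3.69% of the rest of the endothelial barcodes. Lyve1, a lymphatic hyaluronan receptor, was found in 2 of 4 and 11 of 12, against 9.09% and 0.922%. Flt4, the receptor of Vegfc, was found in all 16, and Kdr was too.

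Flt1, Aplnr and Nrp1, which were chosen after their values were seen, had 0 UMIs in all 16 of these barcodes, while 89.4% and 86.2% of the other endothelial barcodes held Flt1. For Aplnr, exact 95% upper limits of the share of barcodes with a UMI were 60.2% for 0 of 4 and 26.5% for 0 of 12. Plvap was found in 2 of 4 and 1 of 12 and Emcn in 2 of 4 and 3 of 12, against 89.4% and 75.1% and 90.9% and 90.8%. Cldn5 was kept, in 4 of 4 and 11 of 12. Gja4 was found in 3 of the 12. Leukocyte barcodes also held Lyve1 (348 and 539 CPM) and Maf. The leukocyte list summed to 11.3 and 8.99 CPM in these 16 barcodes, and to 85.7 and 17.8 CPM in the rest. Library 1 rests on 4 barcodes. Without the barcodes that held mesenchymal, acinar or endocrine RNA 1 and 5 remained, and 5 of 330 genes were at least 4-fold higher, Lyve1, Thy1 and Flt4 among them.

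**Figure D5:**
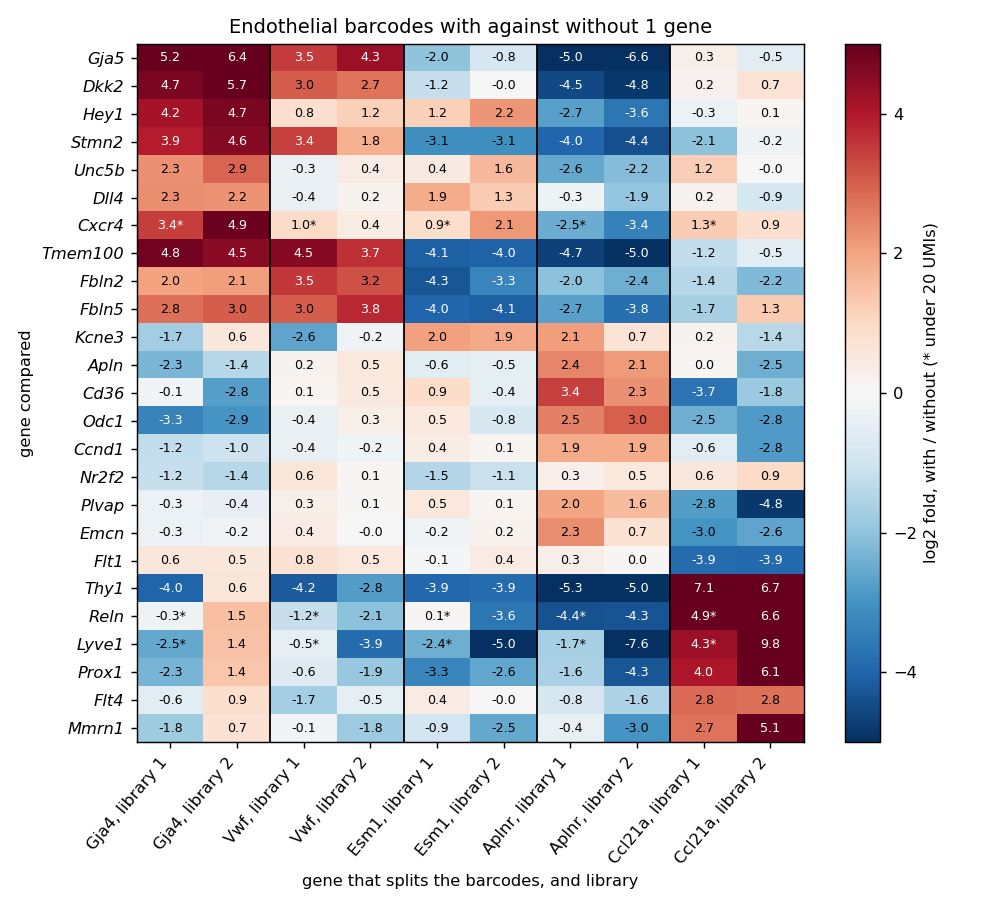
Log2 fold of summed CPM between endothelial barcodes with and without Gja4, Vwf, Esm1, Aplnr (1 or more UMI) or Ccl21a (3 or more UMIs), in each library, for 25 genes; a sum of 0 UMIs was set to 3 counts and stars mark fewer than 20 UMIs in all. Gja5 and Hey1 are high with Gja4 and low with Aplnr, and Lyve1, Prox1 and Thy1 are high with Ccl21a. Cxcr4 and Dkk2 had 0 UMIs with Ccl21a in both libraries, so their positive values there come from the 3 counts.

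Cell cycle genes were found in most endothelial barcodes. At least 2 G2/M UMIs were found in 72.9% (60.9 to 82.8) and 77.7% (71.8 to 83.0) of endothelial barcodes, 55.9% and 50.1% of the others and 78.8% and 78.3% of epithelial barcodes. Thinned to 2000 UMIs the endothelial shares were 45.7% and 59.8% and the shares in all others 34.2% and 35.9%, so the endothelial share was above that of all others in both libraries. The summed G2/M level went different ways, at 1436 CPM against 1633 CPM in the others of library 1 and 2174 CPM against 1732 CPM in library 2. Single genes differed little: the median log2 fold of the 18 G2/M genes was -0.13 and 0.22, that of the 16 S phase genes -0.40 and -0.04, and no gene of either list reached 4-fold in both libraries.

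The libraries differed in several genes, not all of them endothelial. Of 283 list or named genes with at least 20 UMIs in the endothelial barcodes of both together, 9 were at least 4-fold higher in library 1 and 20 in library 2. Among the 9 was Edn1, the vasoconstrictor endothelin, at 352 CPM in library 1 and 54.5 CPM in library 2. The leukocyte list genes C1qa, C1qb and C1qc, the mural list gene Notch3, and Hes1, which differed likewise in the other barcodes, were also among the 9. Vwf, at 184 and 52.6 CPM, and Sox17, a factor of arterial endothelium, at 43.3 and 11.7 CPM, differed by less than 4-fold (3.49 and 3.69). Among the 20 were Esm1, at 35.1 and 146 CPM, and Apln, at 30.9 and 140 CPM. Pdgfb differed by 3.80-fold, and by 3.53-fold in epithelial barcodes. Acinar and endocrine genes were also among the 20, with Ins2 at 4.81 and 149 CPM. With 1 library on each side, handling, depth and the embryos sampled cannot be told apart.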

How the data were processed

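Both droplet libraries were made with 3' single-cell chemistry of 10x Genomics, per the labels' protocols. Per the submitters' processing notes, the deposited counts were made with Cell Ranger 2.0.2 on mm10; the gene annotation is not given in the sources used here. The authors deposited raw UMI counts per gene and barcode (27998 genes; 3764 and 7140 barcodes), with no normalization. Counts were summed over barcodes and divided by the sum, per 1000000. A sum of 0 was set to 3 counts. Intervals are exact binomial or conditional binomial (95%). Thinning drew 2000 UMIs per barcode, and no passing barcode had fewer. Positions came from GENCODE by gene ID (27645 matched). Classes were set by Epcam, Ptprc, Pdgfrb with Rgs5, or Col3a1 with Pdgfra. Scripts used Python 3.11.15, scanpy 1.11.5 (Scrublet) and edgeR 4.0.16 (TMM, as an alternative), and the fold step was tested on simulated data. Named genes were the 25 with the largest and the 10 with the smallest fold, with at least 100 CPM on the higher side, leaving out the 4 selecting genes, plus list genes. The cells and the 33 gene lists were chosen with earlier results of these data known. Alternatives were stricter filters, other folds and totals, doublets left out and each library alone. No p-value was computed.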

Additional observations from a re-analysis of the deposited data

How the results depend on the processing

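No paired analysis was possible because both libraries belong to 1 group and no test was made. The count of genes at least 4-fold higher (474) was 987 at a fold of 2, 293 at a fold of 8 and 295 with at least 100 UMIs, and 440 and 491 with 1 library alone. The count lower (676) was 1738 and 232 at those folds, 384 without endothelial barcodes that held other cells' genes, and 954 and 1484 with 1 library alone. Values below are means of both libraries, in percent. Requiring at least 2000 genes gave an endothelial share of 3.91 (from 2.72), G2/M of 79.2 (from 75.3), tip cell of 90.5 (from 88.6) and venous of 99.2 (from 98.4). Leaving out barcodes with other cells' genes gave 1.18, 67.1, 88.0 and 98.1 for the same 4. Requiring 2 UMIs of Pecam1 and Cdh5 gave 90.9 for tip cell and 99.5 for venous genes. Requiring 5 core UMIs gave 89.8 and 99.1, and leaving out doublet calls or barcodes over 100 erythroid UMIs gave 88.9 and 88.3 for tip cell genes. Thinning to 2000 UMIs gave 61.9 for Kdr (from 94.9), 52.8 for G2/M, 19.8 for arterial (from 59.7), 8.22 for lymphatic (from 46.3), 41 for tip cell and 68.9 for venous genes. Tip cell and venous shares lay so close between libraries that small moves exceed their spread. The other 61 values moved by less than that spread or, for counts, by under 1.5 times. The requirement of 5 core UMIs and the erythroid limit were chosen after the data were seen. The planned count of endothelial cells among the sorted cells was not run. Depth limits rare genes: 3 UMIs amount to 2.06 CPM in library 1 and 1.41 CPM in library 2.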

Other observations

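Madcam1, an adhesion molecule that leads lymphocytes into gut vessels, was found in 45.7% (33.7 to 58.1) of endothelial barcodes of library 1 and 66.8% (60.3 to 72.9) of those of library 2. It stood at 99.0 and 217 CPM, against 2.43 and 3.43 CPM in the other barcodes. Nkx2-3, a factor that acts upstream of Madcam1 in gut and spleen, was found in 44.3% and 21.4% of endothelial barcodes, and stood at 26.1 and 13.8 CPM in mural ones. Of the adhesion molecules known from inflamed endothelium, Sele had 0 UMIs in both libraries, Selp 1 and 1, and Vcam1 5 and 7, while Icam1 stood at 29.6 and 37.6 CPM. Icam2, which resting endothelium makes, was found in 92.9% and 90.4%.

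Genes known from liver sinusoids were present in part. Stab2 stood at 17.2 and 13.2 CPM and Oit3 at 23.4 and 14.6 CPM, found in 14 and 24 and in 16 and 22 endothelial barcodes. Clec4g had 1 and 0 UMIs and Dnase1l3 had 0 in both. Of the 6 genes of the hemogenic list, which marks endothelium that gives rise to blood, only Kit held enough UMIs to be called, and it was 1.60-fold and 1.51-fold higher. Gfi1 and Myb had 0 UMIs.

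Hbb-y was found in all 70 endothelial barcodes of library 1 and 43.2% of those of library 2, and in 99.7% and 39% of the others. With barcodes over 100 erythroid UMIs left out on both sides, it stood at 471 and 57.8 CPM in endothelial barcodes and at 588 and 76.3 CPM in others.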
